A study of Homo sapiens with 24 samples.

Results

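The proteasome is the protease complex that degrades proteins tagged with ubiquitin. Its 20S core is a barrel of alpha (PSMA) and beta (PSMB) subunits whose active sites face inward, and its 19S cap, built of ATPases (PSMC) and non-ATPase subunits (PSMD), binds, unfolds and feeds in the substrate. Interferon can exchange the catalytic beta subunits for the inducible PSMB8, PSMB9 and PSMB10 of the immunoproteasome, and other activators (PSME1 to PSME4) and an inhibitor (PSMF1) also bind the core. Prostate cancer cells, like other proliferating cells, express these subunits at high levels. The genes described here are all symbols made of PSM, a letter from A to F and a number, 44 of the 25277 symbols of the expression table, and 41 of them were among the 13622 symbols tested.

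RNA was sequenced from DU145DR and 22Rv1DR, docetaxel-resistant sublines of the human prostate cancer lines DU145 and 22Rv1, after siRNA against POM121, a nucleoporin of the nuclear membrane. Each subline received a control treatment that the labels do not specify, siPOM121 construct 1 or siPOM121 construct 2, and no time after transfection is given. Each of the 6 groups held 2 libraries, and each library was read on 2 lanes, which gives 24 samples. The DU145DR libraries carry the codes 1A and 2A for control, 1B and 2B for construct 1, and 1C and 2C for construct 2. Those of 22Rv1DR are, in the same order, 4A and 5A, 4B and 5B, and 4C and 5C. The labels do not state whether a group's libraries are separate cultures, so the p-values reflect only how these libraries scatter. The read depth is unknown because the table holds no counts.

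POM121 itself was lower with siPOM121 in both lines, by a log2 difference of -0.71 in DU145DR and -2.37 in 22Rv1DR, and its near-identical copy POM121C, whose fragments may not be separable from it, by -0.71 and -2.58. Markers of other cell types (PTPRC, CD3E, PECAM1, VWF and COL3A1) were listed at 0 in all 24 samples, while CD68 and COL1A1 were detected in both lines. COL1A1 was at 1.04 and 1.09 FPKM in the DU145DR controls and 2.18 to 2.93 with siPOM121, and CD68 went from 15.7 and 15.5 to 12.5 to 13.2 in DU145DR and from 1.61 and 1.88 to 1.94 to 2.53 in 22Rv1DR; their part in the results was not tested. Of the markers of 22Rv1, KLK2, KLK3 and FOLH1 were at 0 in DU145DR, while of those of DU145, VIM and CD44 were at 0 in 22Rv1DR. Of the 4 epithelial markers CDH1 was at 0 in DU145DR, and in its controls KRT8 was at 38.1 and 35.8 FPKM, KRT18 at 81.4 and 76.2 and EPCAM at 2.78 and 3.16. Library 5C stood apart from its partner 4C: 147 of the tested symbols (1.08%) differed between them by more than 1 on the log2 scale, against 62 to 96 in the other 5 groups. By lane number, every DU145DR library and 4A were on lanes 1 and 2, and the rest of 22Rv1DR on lanes 3 and 4. The lane number alone does not show whether libraries shared a run. In bulk RNA, fewer cells with a transcript and less of it per cell cannot be told apart.

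RefSeq promoters on GRCh38.p14, the 250 bases before a gene's start and the 50 after it, were matched for 39 of the 44 members. Both strands were searched for 7 motifs. Shares are given for the members' promoters, then for all 27305 promoters and for the 9901 of tested genes. The ETS core CCGGAAG was in 30.8% of the members' promoters, in 10.7% of all and in 19.1% of those of tested genes. The CCAAT box was in 46.2% against 35.7% and 36.7%, and the antioxidant response element TGANNNNGC, the kind of site bound by NFE2L1, a transcription factor known for driving proteasome genes, was in 61.5% against 42.1% and 42.9%. The interferon response element GAAANNGAAA was in 5 members (PSMA4, PSMB4, PSMB10, PSME1 and PSME2), or 12.8% against 3.65% and 2.55%. The gamma-activated sequence TTCNNNGAA was in 12.8% against 7.88% and 6.08%, and the motif GCGCNTGCGC in 12.8% against 6.29% and 11.6%. After these values were seen, the exact letters GAAAGCGAAA were taken from the PSMB10 promoter and searched. They were found in 3 members (PSMB10, PSME1 and PSME2), in 0.110% of all promoters and in 0.192% of those of tested genes. The PSMB10 match was thus fixed in advance, and the members' count cannot be weighed against these shares. These matches overlap the GAAANNGAAA matches, of which they are one spelling. They describe letters in a window and say nothing of whether a factor binds there. The 3 stretches that hold GAAAGCGAAA are shown because those members behaved differently from one another in these cells, and PSMC4 is shown as a 19S ATPase that was lower in both lines. Capitals mark GAAAGCGAAA, or its reverse complement in PSME1, and in PSMC4 a TGANNNNGC match on the opposite strand. PSMB10 is at chr16:67936851-67936930 and PSME2 at chr14:24146611-24146690, both on the minus strand and both ending 1 base before the start. PSME1 is at chr14:24136134-24136208 on the plus strand, with its last 15 bases after the start, and PSMC4 is at chr19:39971085-39971164 on the plus strand, ending 1 base before the start.
PSMB10: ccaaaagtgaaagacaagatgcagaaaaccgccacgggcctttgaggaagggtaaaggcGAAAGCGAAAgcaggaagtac
PSME2: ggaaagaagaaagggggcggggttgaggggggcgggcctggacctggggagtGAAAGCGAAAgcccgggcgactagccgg
PSME1: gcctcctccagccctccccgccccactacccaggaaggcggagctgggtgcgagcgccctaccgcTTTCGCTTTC
PSMC4: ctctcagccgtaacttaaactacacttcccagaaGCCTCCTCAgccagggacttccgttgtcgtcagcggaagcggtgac

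In the control cells nearly the whole complex was expressed. Levels are in FPKM, which scales fragments by transcript length and library size, so they can be compared between genes, and a group's level is the mean of its 2 libraries on the log2 scale. Of the 44 members, 40 were above 1 FPKM, the lowest value the table keeps, in all 24 samples. PSMB4, a non-catalytic beta subunit, was the highest member in both lines, at 532 FPKM in DU145DR and 443 in 22Rv1DR. The 7 beta-ring subunits had a median of 196 FPKM in DU145DR and 138 in 22Rv1DR, the 7 alpha-ring subunits 132 and 113, the 11 non-ATPases of the cap 85.3 and 69.5, and the 6 cap ATPases 69.0 and 66.6. Members of one ring, which are present in equal numbers in the protein complex, therefore spanned a wide range of transcript levels, in DU145DR from 34.7 FPKM (PSMA5) to 250 (PSMA7) in the alpha ring and from 55.0 (PSMB2) to 532 (PSMB4) in the beta ring. PSMA8, the germline alpha subunit, and PSMB11, the thymus beta subunit, were listed at 0 in every sample.

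The control lines differed in 33 of the 41 tested members (limma, Benjamini-Hochberg adjusted p under 0.05), where 83.0% of all tested symbols differed, 40.3% as higher and 42.7% as lower. In 22Rv1DR 8 members were higher and 25 lower than in DU145DR, with a median log2 difference of -0.40 over the members and -0.02 over all tested symbols; with equal library medians the members' median was -0.23. The 19S cap had 3 members higher and 11 lower of 17, and the constitutive 20S core 2 higher and 9 lower of 14. The widest gap was in the interferon-linked activator PSME2, at 62.0 and 57.8 FPKM in the 22Rv1DR control libraries against 4.97 and 4.87 in DU145DR. Its partner PSME1, with which it forms the PA28 ring on the core, was at 115 and 118 FPKM against 29.6 and 30.5. The control libraries of the lines did not overlap in either gene. The share of all tested symbols without such overlap was not counted. On the log2 scale PSME2 was higher by 3.61 ± 0.65 (SE, 2 libraries per group, limma adjusted p = 0.00161) and PSME1 by 1.96 ± 0.05 (adjusted p = 4.72e-10).

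The third member higher by this rule was PSMD9, a chaperone of cap assembly, with 37.9 and 37.7 FPKM in 22Rv1DR against 21.3 and 21.1, a log2 difference of 0.84 ± 0.04 (limma adjusted p = 2.92e-08). The lowest was another assembly chaperone, PSMD5, at 13.2 and 12.6 FPKM against 34.3 and 36.1 (-1.45 ± 0.08, adjusted p = 4.75e-08). PSME4, the large activator PA200, was at 14.1 and 13.6 FPKM against 33.9 and 35.2 (-1.32 ± 0.05, adjusted p = 2.79e-09). These 3 members and PSMB7 also showed no overlap between the lines, a pattern not counted over all tested symbols. PSMB7, which carries the trypsin-like site, was at 131 and 134 FPKM against 325 and 325 (-1.29 ± 0.05, adjusted p = 3.88e-09). Among the catalytic subunits PSMB5 had the opposite sign, at 0.61 ± 0.04 (adjusted p = 2.58e-07). Lanes 1 and 2 held 4A as the only 22Rv1DR library, and no fit was confined to these lanes.

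**Figure D1:**
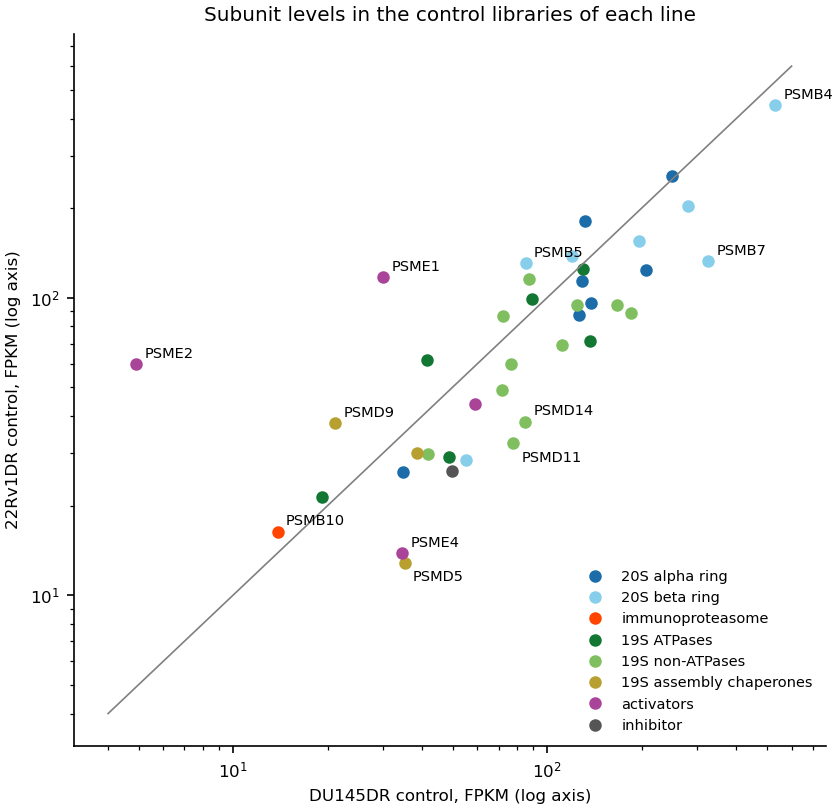
Level of each of 40 members in the DU145DR controls (x axis, FPKM, log scale) and the 22Rv1DR controls (y axis, FPKM, log scale), each point the mean of 2 libraries on the log2 scale, coloured by role, with the grey line marking equal levels. PSME1 and PSME2 sit far above the line, while PSMB7, PSMD11, PSMD14, PSME4 and PSMD5 sit below it.

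In DU145DR, siPOM121 was followed by lower levels of part of the 19S cap and by opposite changes among the activators. With both constructs averaged, 11 of the 41 members fell and 1 rose, where 23.9% of all tested symbols were called, 9.37% as lower and 14.5% as higher. The differences were small: the median over the members was a log2 difference of -0.11 (0.00 over all tested symbols) and 34 of 41 were below 0. The 19S cap had 6 lower members of 17 and all 17 below 0, with a median of -0.16, and the constitutive 20S core had 2 lower of 14 with a median of -0.07. In 25 members every siPOM121 library was below both controls, a pattern held by 22.0% of all tested symbols, and in PSME1 alone every one was above both (27.2% of all tested symbols). Against control, construct 1 alone had 12 lower and 1 higher (19.8% of all tested symbols called, 7.62% lower and 12.2% higher), and construct 2 had 3 lower and 1 higher (16.6%, 5.62% lower and 11% higher). The members' count rested on the control libraries, since without 1A or without 2A only 3 were lower and 1 higher, and on the spread shared with 22Rv1DR, since without 4C or without 5C 22 were lower and 1 higher.

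PSMC4, the cap ATPase whose promoter is shown above, was at 139 and 135 FPKM in the control libraries of DU145DR, at 105 and 106 with construct 1 and at 114 and 116 with construct 2. All 4 siPOM121 libraries lay below both controls, and the log2 difference was -0.31 ± 0.06 (SE, limma adjusted p = 0.00381), or 1.24-fold lower. PSMD13, a lid subunit of the cap, went from 111 and 112 FPKM to 98.1 and 95.4 with construct 1 and 103 and 103 with construct 2. Its difference was -0.16 ± 0.03 (adjusted p = 0.00889), and the call was lost without 1A (0.0588) or without 2A (0.0710). The other cap members lower in DU145DR were the ATPase PSMC5 (-0.21) and the non-ATPases PSMD12 (-0.24), PSMD6 (-0.18) and PSMD14 (-0.16), the last of which removes ubiquitin chains from the substrate. The assembly chaperones PSMD5, PSMD9 and PSMD10 stayed between -0.05 and 0.03 and none passed the threshold.

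The activators did not move together. PSME3, the nuclear activator PA28 gamma, was at 58.7 and 58.9 FPKM in the DU145DR controls, 45.2 and 47.1 with construct 1 and 47.5 and 47.6 with construct 2. Both controls were above every siPOM121 library, and PSME3 had the smallest p of the members, at -0.33 ± 0.04 (limma adjusted p = 0.000955). PSME1 went the other way, from 29.6 and 30.5 FPKM to 35.8 and 37.8 with construct 1 and 37.1 and 39.6 with construct 2. All 4 siPOM121 libraries were above both controls, and the difference was 0.32 ± 0.05 (adjusted p = 0.00152). PSME2, the partner of PSME1, stayed low, between 3.92 and 6.37 FPKM in all 6 libraries with overlapping groups, and was 9.56% to 14.4% of the summed PSME1 and PSME2 level. PSME4 fell by 0.16 (adjusted p = 0.0195).

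Of the catalytic subunits in DU145DR, the inducible PSMB10 had the largest difference. It was at 13.7 and 14.04 FPKM in the controls, 10.0 and 10.2 with construct 1 and 10.3 and 11.1 with construct 2. The siPOM121 libraries were all below the controls, and the difference was -0.42 ± 0.09 (limma adjusted p = 0.012), lost without 1A (0.0724) or 2A (0.0909) and on the lower-numbered lane alone (0.123). PSMB7, the constitutive subunit that PSMB10 replaces, was at 325 and 325 FPKM in the controls and between 286 and 307 in the siPOM121 libraries, a difference of -0.13 ± 0.04 (adjusted p = 0.0459), and that call was lost on the lower-numbered lane alone (0.100) and without any one of the libraries other than 4C and 5C. PSMB10 was thus 4.05% and 4.14% of the summed PSMB10 and PSMB7 level in the controls and 3.23% to 3.52% with siPOM121. PSMB6, the caspase-like subunit, was at 199 and 193 FPKM in the controls and 168 to 185 with siPOM121 (-0.14 ± 0.05, adjusted p = 0.099). PSMB5, the chymotrypsin-like subunit and main target of bortezomib, was at 87.3 and 83.7 FPKM in the controls and 78.1 to 83.8 with siPOM121 (-0.07 ± 0.03, adjusted p = 0.156). Neither passed the threshold, though PSMB6 did without 4C or without 5C (0.00941 and 0.00942), and the PSMB5 groups overlapped while those of PSMB6 did not.

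PSMB8 and PSMB9, the other inducible subunits, which replace PSMB5 and PSMB6, each had 8 lines in the table. The line with the highest mean is described, and on it both genes were near the floor in DU145DR and in 22Rv1DR. Each line has its own floor, so a 0 does not show that the gene as a whole was under 1 FPKM. Whether fragments were split among the lines is not stated. PSMB8 was above 1 FPKM in 1 of the 24 samples, at 1.19 FPKM on 1 lane of library 1B. PSMB9 was listed at 0 in all 8 control samples and was above the floor in 5 of 8 DU145DR and 6 of 8 22Rv1DR siPOM121 samples, at no more than 1.32 FPKM. Summed over its lines, PSMB9 reached 6.48 FPKM in a sample of library 4B and was between 4.01 and 6.48 FPKM in the 12 siPOM121 samples that had any. PSMB9 passed the filter on low values only through siPOM121 libraries, so its being higher there is in part a matter of that filter, and no fold is given against controls listed at 0.

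**Figure D2:**
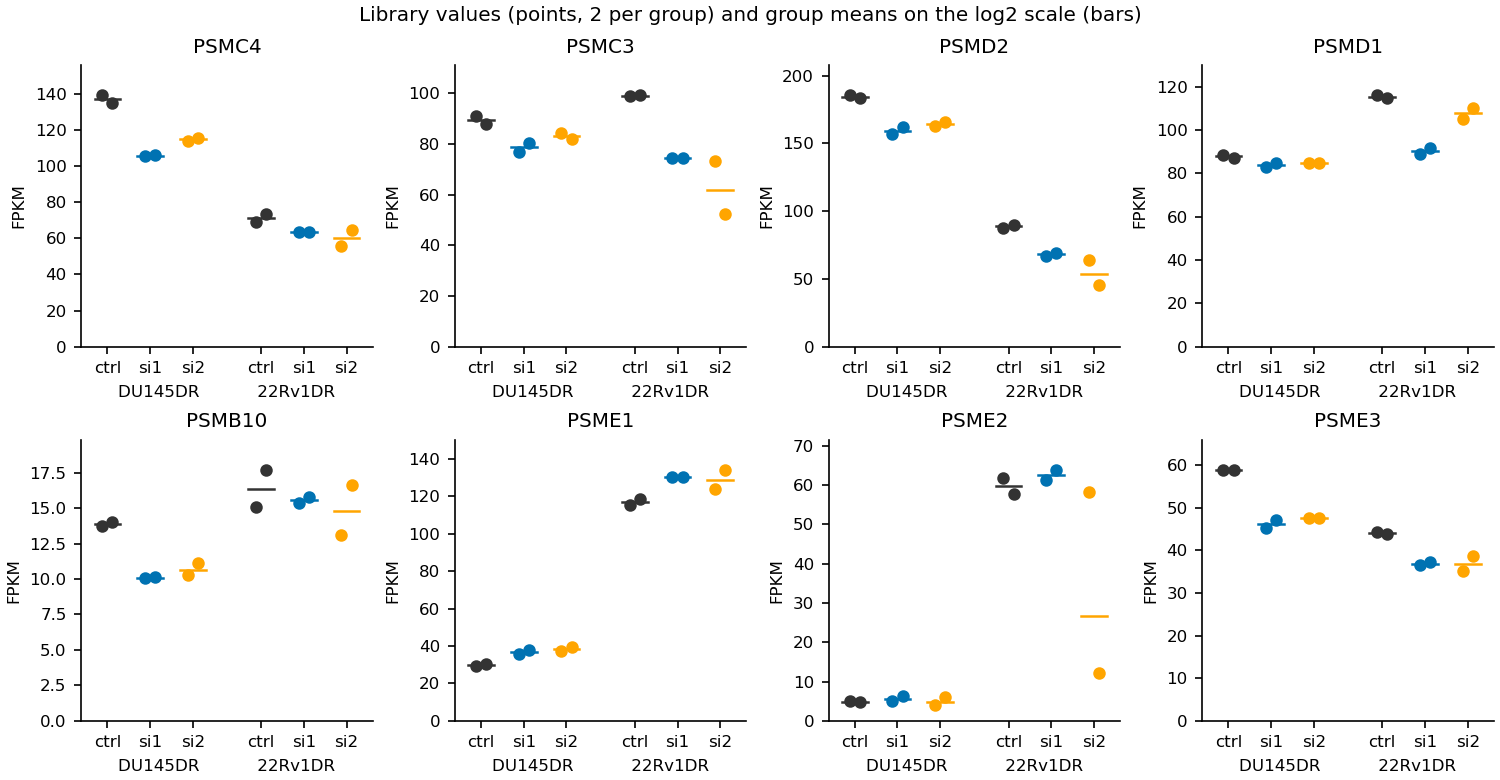
FPKM (y axis, from 0) of 8 members in each library, with points for the 2 libraries of control (ctrl), construct 1 (si1) and construct 2 (si2) in each line and bars for the group mean on the log2 scale. PSMC4, PSMB10 and PSME3 are lower in every DU145DR siPOM121 library than in its controls and PSME1 is higher, while in 22Rv1DR the construct 2 libraries lie apart for PSME2 (58.4 and 12.2 FPKM), PSMC3 and PSMD2.

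In 22Rv1DR the lower members were mostly of the 19S cap, which in DU145DR held 6 of the 11 lower members. With both constructs averaged, 14 of 41 members fell and 2 rose, where 35.5% of all tested symbols were called, 20.4% as lower and 15.2% as higher. The median over the members was -0.08 (-0.02 over all tested symbols), and 30 of 41 were below 0. The cap had 10 lower members of 17 with a median of -0.20, and the constitutive core 2 lower of 14 with a median of -0.03. In 15 members every siPOM121 library was below both controls (27.3% of all tested symbols), and in PSME1 and PSME4 every one was above both (18.0%). PSMB9 was too, but it passed the filter only through siPOM121 libraries of the 2 lines, so that is in part a matter of the filter. Construct 1 had 9 members lower and none higher (27.1% of all tested symbols called, 15.2% lower and 12% higher), and construct 2 had 13 lower and 1 higher (35.1%, 20.6% lower and 14.5% higher). With quantile normalization these counts were 5 lower and 1 higher, and 10 lower and 3 higher, and with equal library medians 6 and 1, and 11 and 3. Fewer members were called without 4A or without 5A, and more without 4C. Without 4A, every 22Rv1DR library left was from lanes 3 and 4, but the spread was still shared with DU145DR. With 22Rv1DR fitted alone 4 were lower and 1 higher. All 16 members called remained past the threshold without 4C and also without 5C.

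PSMD2, the large scaffold subunit at the base of the cap, had the largest called difference. It was at 87.9 and 90.1 FPKM in the controls, 66.9 and 69.4 with construct 1, and 63.6 and 45.3 with construct 2. Every siPOM121 library was below both controls, and the difference was -0.56 ± 0.10 (SE, limma adjusted p = 0.00354), or 1.47-fold lower; it was -0.43 without 5C, and with 22Rv1DR fitted alone the adjusted p was 0.106. The ATPase PSMC3 showed the same order, from 98.7 and 99.1 FPKM to 74.3 and 74.2 with construct 1 and 73.4 and 52.3 with construct 2 (-0.54 ± 0.11, adjusted p = 0.00399, and -0.42 without 5C). PSMD4, a receptor for ubiquitin chains, was at 93.5 and 95.5 FPKM in the controls, 90.0 and 91.7 with construct 1, and 74.3 and 53.8 with construct 2 (-0.32 ± 0.10, adjusted p = 0.0365, and -0.20 without 5C). In all 3 genes the controls lay above every siPOM121 library, and library 5C was the lowest.

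PSMD1, the other large scaffold of the cap, had the smallest p of the members in 22Rv1DR. It was at 116 and 115 FPKM in the controls, 89.0 and 91.8 with construct 1 and 105 and 110 with construct 2, and the groups did not overlap. The difference was -0.23 ± 0.03 (limma adjusted p = 0.00131). PSMA7, an alpha-ring subunit, was at 256 and 256 FPKM in the controls, 209 and 214 with construct 1 and 235 and 230 with construct 2 (-0.21 ± 0.04, adjusted p = 0.0028). The remaining cap members that fell were the ATPases PSMC2 (-0.28), PSMC5 (-0.22) and PSMC4 (-0.21) and the non-ATPases PSMD3 (-0.22), PSMD12 (-0.20) and PSMD11 (-0.16). PSMF1, the inhibitor that binds the core, fell by 0.22 (adjusted p = 0.0475).

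Of the catalytic subunits in 22Rv1DR, PSMB5 was the one that passed the threshold. It was at 129 and 132 FPKM in the controls, 110 and 113 with construct 1 and 119 and 121 with construct 2, with no overlap (-0.18 ± 0.03, limma adjusted p = 0.00414). PSMB6 was at 153 and 158 FPKM in the controls and 135 to 155 with siPOM121 (-0.15 ± 0.05, adjusted p = 0.058), and PSMB7 at 131 and 134 against 121 to 132 (-0.07 ± 0.04, adjusted p = 0.213). Both passed without 5C, with adjusted p of 0.00148 and 0.00782, and PSMB6 also without 4C, with an adjusted p of 0.039. PSMB10 was at 15.1 and 17.7 FPKM in the controls and 13.1 to 16.7 with siPOM121, overlapping groups (-0.11 ± 0.09, adjusted p = 0.431, and 0.0388 without 5C). Its share of the summed PSMB10 and PSMB7 level was 10.3% and 11.7% in the controls and 9.78% to 11.3% with siPOM121. In the controls PSMB10 thus made up a larger share of this pair in 22Rv1DR than in DU145DR, with PSMB7 lower there and the PSMB10 level itself not past the threshold between lines (0.24 ± 0.11, adjusted p = 0.0705).

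PSME3 fell in 22Rv1DR too, from 44.2 and 43.9 FPKM to 36.5 and 37.2 with construct 1 and 35.2 and 38.7 with construct 2 (-0.26 ± 0.04, limma adjusted p = 0.00209). PSME1 rose from 115 and 118 FPKM to 130 and 130 with construct 1 and 124 and 134 with construct 2 (0.15 ± 0.05, adjusted p = 0.0343). The groups did not overlap for either activator. PSME2 was at 62.0 and 57.8 FPKM in the controls, 61.3 and 64.0 with construct 1, 58.4 in library 4C and 12.2 in library 5C, where both lanes were low (12.8 and 11.5). Its difference was not past the threshold (-0.55 ± 0.57, adjusted p = 0.519). It was 0.01 without 5C (adjusted p = 1) and -1.12 without 4C (adjusted p = 0.00227), where 5C alone stood for construct 2. PSME2 was 32.0% to 34.9% of the summed PSME1 and PSME2 level in the 5 other 22Rv1DR libraries and 8.29% in 5C.

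**Figure D3:**
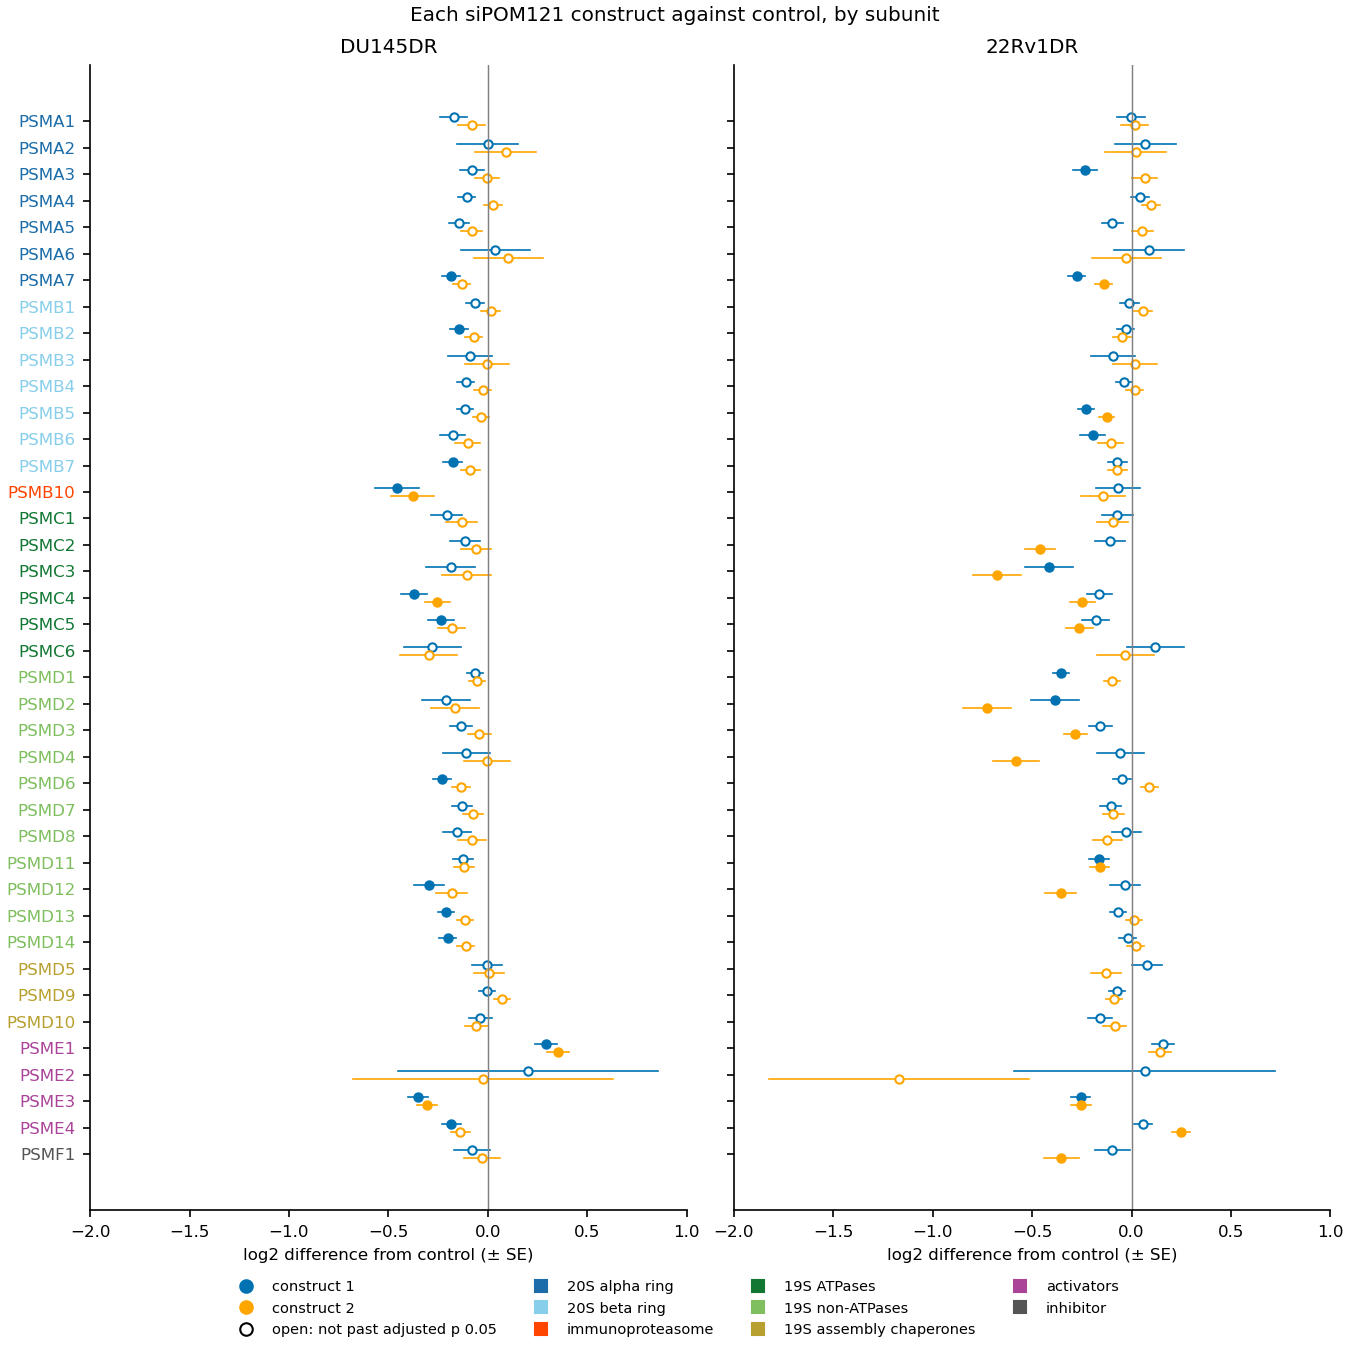
Log2 difference of each construct from control (x axis, with the limma SE as bars) for 40 members in DU145DR (left) and 22Rv1DR (right), the names coloured by role and filled points past an adjusted p of 0.05. Most cap members lie left of 0 in both lines, PSME1 lies right of 0 in both, and the SE bars of PSME2 are the widest.

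PSMA7, PSMC4, PSMC5, PSMD12 and PSME3 were lower in both lines and PSME1 was higher in both. The share of all tested symbols called in both lines was not counted. PSMB7, PSMB10, PSMD6, PSMD13 and PSMD14 passed as lower only in DU145DR, and PSMB5, PSMC2, PSMC3, PSMD1, PSMD2, PSMD3, PSMD4, PSMD11 and PSMF1 only in 22Rv1DR. A call in one line alone is not a difference between lines, and the test of that difference (the 22Rv1DR effect minus the DU145DR effect) was passed by 3 of the 41 members, where 24.8% of all tested symbols passed, 8.93% as higher and 15.9% as lower. PSME4 was the clearest of them. It was at 33.9 and 35.2 FPKM in the DU145DR controls and 30.2 to 31.7 with siPOM121, while in 22Rv1DR it was at 14.1 and 13.6 in the controls and 14.3 to 16.9 with siPOM121. It fell in the first line and rose in the second (0.15 ± 0.04, limma adjusted p = 0.0171), with no overlap in either, and the effects differed by 0.31 ± 0.06 (adjusted p = 0.00534).

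PSMD6, a lid subunit, fell in DU145DR, from 70.6 and 73.4 FPKM to between 60.5 and 66.5. In 22Rv1DR its groups overlapped, at 48.4 and 49.1 FPKM in the controls and 45.8 to 52.2 with siPOM121, and the effects differed by 0.20 ± 0.05 (limma adjusted p = 0.0257). PSMD1 was at 88.4 and 87.2 FPKM in the DU145DR controls and 82.9 to 85.0 with siPOM121, and its effects differed by -0.17 ± 0.05 (adjusted p = 0.0365). PSMD14 was next (0.16 ± 0.05, adjusted p = 0.0551). The PSMD6 difference was lost without 2A, 1B, 2C, 4A, 5A or 5B (adjusted p of 0.0561 to 0.114) and on either lane alone (0.0521 and 0.0929). That of PSMD1 was lost without any library but 4C and 5C (0.0543 to 0.128), on the higher-numbered lane alone (0.0935), and under quantile normalization or equal library medians (0.116 and 0.0758). With quantile normalization 6 members had a higher effect in 22Rv1DR and none a lower one, and with equal medians 5 and none. In number, 1 member differed without 1 of 2A, 1B, 2C, 4A, 5A or 5B, against 14 without 4C and 16 without 5C. Since all tested symbols had a median difference between lines of -0.06, the members' median of 0.00 stood slightly above it.

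Members were called between the constructs in 22Rv1DR but not in DU145DR, where most members nonetheless differed slightly in one direction. In DU145DR no member passed the threshold between construct 2 and construct 1 (limma), where 0.022% of all tested symbols did (0.00734% higher and 0.0147% lower). There 2 members had an unadjusted p under 0.05. The members' median was 0.08 (0.00 over all tested symbols), with 38 of 41 higher with construct 2 than with construct 1 (not PSMC6, PSMD10 and PSME2). The share of all tested symbols that were higher in this way was not counted. In 22Rv1DR 3 members were higher and 3 lower with construct 2, where 11.6% of all tested symbols were called, 7.3% as higher and 4.28% as lower. PSMD1 was higher by 0.25 ± 0.04 (adjusted p = 0.00704). PSMA3, an alpha-ring subunit, was at 79.7 and 83.1 FPKM with construct 1 and 107 and 93.5 with construct 2 (0.30 ± 0.06, adjusted p = 0.0183), against 96.1 and 95.5 in the controls. PSMC2 was at 56.4 and 58.4 FPKM with construct 1 and 49.5 and 41.0 with construct 2 (-0.35 ± 0.08, adjusted p = 0.0215). The others were PSME4 (0.19), PSMD4 (-0.52) and PSMD12 (-0.32). Without 5C the differences of PSMD4, PSMD12 and PSMC2 were smaller, at -0.29, -0.20 and -0.21.

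The construct 2 values of 22Rv1DR rest on libraries that differed from each other. Between 4C and 5C, 10 of the 41 members differed by more than 0.3 on the log2 scale, and in the other 5 pairs of libraries 0 or 1 did. The share of all tested symbols past 0.3 was not counted, so the gap may not be particular to the members. Past a difference of 1 that share was 1.08% between 4C and 5C and 0.46% to 0.70% in the other pairs. PSMA2, PSMA6, PSMB3, PSMC3, PSMC6, PSMD2, PSMD4 and PSME2 were lower in 5C, by up to 2.26 for PSME2, and PSMB10 and PSMF1 were higher. PSMA6, for example, was at 110 FPKM in 4C and 67.0 in 5C against 88.7 and 85.7 in the controls, so that the construct 2 libraries lay on either side of the control level. Of the 6 differences between constructs, 6 remained without 5C and 5 without 4C, when PSME4 was lost (adjusted p = 0.0611). All 6 calls were lost without 4B, with 22Rv1DR fitted alone or with libraries weighted by their noise, and without 5B 1 was left, while without 4C 3 members were higher and 10 lower and without 5C 9 were higher and 9 lower. Of the 14 members called for construct 2 against control, 14 remained without 5C and 13 without 4C, when PSMD11 was lost. What set 5C apart from 4C was not tested.

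**Figure D4:**
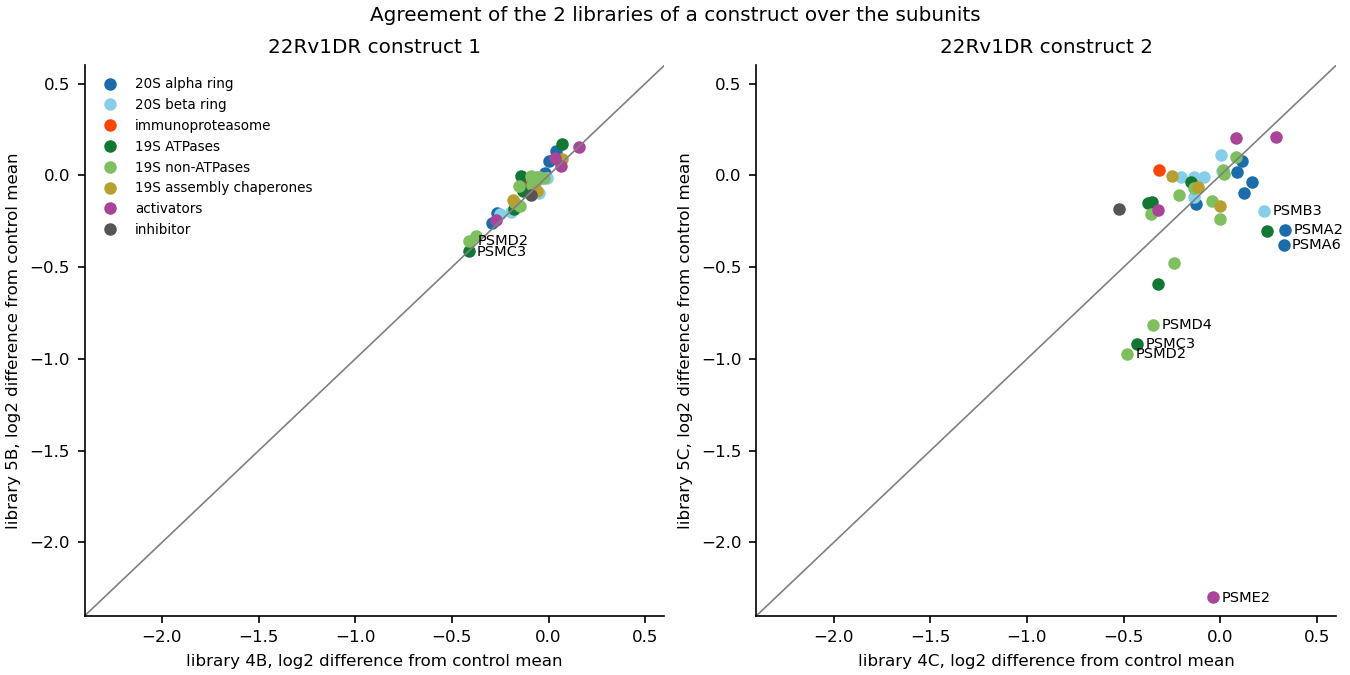
Log2 difference of each library from the 22Rv1DR control mean for 40 members, library 4B (x axis) against 5B (y axis) on the left and 4C against 5C on the right, with the grey line marking equal values. The construct 1 libraries lie along the line, while in construct 2 PSME2, PSMD2, PSMC3, PSMD4, PSMA2, PSMA6 and PSMB3 lie well below it.

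Summed over their members, the 14 constitutive core subunits were at 2617 and 2602 FPKM in the DU145DR controls, 2399 and 2416 with construct 1 and 2565 and 2534 with construct 2. The 17 cap subunits were at 1575 and 1560 FPKM, 1359 and 1389, and 1445 and 1441. Both sums were below the controls in every siPOM121 library. In 22Rv1DR the core sums overlapped, at 2106 and 2123 FPKM in the controls, 1981 and 2022 with construct 1 and 2165 and 2041 with construct 2, and the cap sums did not, at 1158 and 1175, 1030 and 1053, and 1004 and 947. No test was run on these sums.

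Genes that work with the proteasome were taken from lists of assembly factors, regulators, ubiquitin genes and immunoproteasome partners. Of 14 assembly and associated factors, 4 were lower and none higher in DU145DR (median -0.11), and 5 were lower and 1 higher in 22Rv1DR (median -0.07). The shares over all tested symbols were 9.37% lower and 14.5% higher in DU145DR and 20.4% lower and 15.2% higher in 22Rv1DR. UCHL5, a deubiquitinase of the cap, was at 42.8 and 44.9 FPKM in the DU145DR controls and 30.6 to 37.5 with siPOM121 (-0.34 ± 0.05, limma adjusted p = 0.00235). The other factors named by p in DU145DR were KIAA0368, also known as ECM29 (-0.30), whose call was lost without 1A or 2A (0.0677 and 0.0538), and the core chaperone PSMG1 (-0.24), lost without 2A (0.0724). In 22Rv1DR USP14, another deubiquitinase of the cap, fell by 0.20 (adjusted p = 0.00276), and PSMG1 by 0.21 (adjusted p = 0.0106, and 0.114 without 4A). POMP, the chaperone that completes the core, rose there, from 82.4 and 79.4 FPKM to between 89.1 and 98.7 (0.21 ± 0.04, adjusted p = 0.00358).

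Among 10 genes listed as regulators of the proteasome, not all of them transcription factors, 5 were lower and none higher in DU145DR (median -0.14). In 22Rv1DR 1 was lower and 3 higher (median 0.02). Over all tested symbols 9.37% were lower in DU145DR, and 20.4% were lower and 15.2% higher in 22Rv1DR. NFE2L1 was at 38.1 and 38.8 FPKM in the 22Rv1DR controls and 40.3 to 47.5 with siPOM121, with no overlap (0.22 ± 0.05, limma adjusted p = 0.00634, and 0.0556 without 4A). Its dimer partner MAFG was lower in both lines, by -0.19 in DU145DR (adjusted p = 0.00641, and 0.0666 without 1A) and -0.28 in 22Rv1DR (adjusted p = 0.000598). In DU145DR MAFF (-0.45) and ZFAND2A (-0.39) also fell, and both calls were lost without 1A (0.108 and 0.109), that of ZFAND2A also without 2A (0.0971) or 1C (0.0512). ZFAND5 rose in 22Rv1DR, by 0.33 (adjusted p = 0.000895).

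Of 16 ubiquitin and shuttle genes, 1 was higher and 1 lower in DU145DR (median -0.03), and 2 were higher and 4 lower in 22Rv1DR (median -0.08). Over all tested symbols 14.5% were higher and 9.37% lower in DU145DR, and 15.2% and 20.4% in 22Rv1DR. UBA1, the main ubiquitin-activating enzyme, was at 130 and 133 FPKM in the 22Rv1DR controls and 95.7 to 113 with siPOM121 (-0.29 ± 0.06, limma adjusted p = 0.00615, and 0.0599 without 5A). NPLOC4, a cofactor of the unfoldase VCP, was lower in both lines, by -0.17 in DU145DR (adjusted p = 0.0239) and -0.27 in 22Rv1DR (adjusted p = 0.0024). UBB, a polyubiquitin gene, rose by 0.13 in DU145DR (adjusted p = 0.0309), and its difference was 0.01 with quantile normalization (adjusted p = 1). The DU145DR calls of NPLOC4 and UBB were each lost without any single DU145DR library (adjusted p of 0.053 to 0.184), and UBQLN1 was not past the threshold there (-0.12, adjusted p = 0.0633).

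Of 16 partners and inducers of the immunoproteasome 15 were tested. In DU145DR 7 were higher and 1 lower (TAP2, -0.24), with a median of 0.18, and in 22Rv1DR 3 were higher and none lower, with a median of 0.12. Over all tested symbols 14.5% were higher in DU145DR and 15.2% in 22Rv1DR. In DU145DR TAPBP, which holds class I molecules at the peptide transporter, was at 8.92 and 9.19 FPKM in the controls and 11.9 to 12.4 with siPOM121 (0.42 ± 0.07, limma adjusted p = 0.00273). ERAP2, which trims peptides, rose by 0.53 (adjusted p = 0.000272), but not far above the floor, from 1.82 and 1.83 FPKM to between 2.45 and 2.70. STAT2, an interferon signal transducer, rose by 0.43 (adjusted p = 0.00142). B2M, the light chain of class I molecules, rose in 22Rv1DR from 254 and 239 FPKM to between 281 and 379 (0.39 ± 0.05, adjusted p = 0.000764), and IFNGR1, an interferon gamma receptor chain, by 0.35 (adjusted p = 0.00084). JAK1 rose there by 0.23 (adjusted p = 0.00582), but near the floor, from 1.53 and 1.42 FPKM to between 1.66 and 1.82. Its call was lost without 5A, where the difference was 0.18, and on the higher-numbered lane alone (adjusted p = 0.0967). With 22Rv1DR fitted alone, the calls of PSMG1, NFE2L1, NPLOC4, UBA1 and JAK1 were lost (adjusted p of 0.0565 to 0.0981). Beside these, PSMB10 was lower, PSME1 higher and PSME2 not past the threshold in DU145DR. These are the 3 members whose promoters hold GAAAGCGAAA, letters that were taken from the PSMB10 promoter.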

How the data were processed

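Poly(A) RNA-seq libraries (TruSeq, which keeps no strand) were made from 6 groups of 2 libraries, 2 lanes each. Per the submitters' processing notes, TopHat and Cufflinks were used, without versions, and the genome builds were hg19 (human) and mm10. The deposited values are log2 FPKM by gene symbol, set to 0 by the authors at or under 1 FPKM: raised to the power of 2, all values above 0 (100% of them) become numbers of 6 significant digits, against 3.97% with base e. 52.8% of values are 0, which may be low expression or an estimate not made. Counts were not used here and depth is unknown. In single samples, each 1 lane of a library, 11884 to 12126 symbols were above the floor in DU145DR and 12361 to 12569 in 22Rv1DR.

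For the 605 symbols with several lines the line of highest mean was kept. Lanes were averaged on the log2 scale, and symbols with both lanes over the floor in 2 or more of the 12 libraries were tested. Tests used limma 3.58.1 (R 4.3.3; trend and robust options) on library means, a spread shared over 6 groups (6 residual degrees of freedom), 2-sided, with Benjamini-Hochberg adjustment over all symbols tested and a threshold of 0.05; the code was tested on simulated data. SE is limma's. The siPOM121 effect is the mean of both constructs minus control. Members, roles and gene lists were chosen with earlier results of these data known. Named in full were the catalytic subunits, the 4 members of smallest p per line and for the line difference, the 3 of smallest p between 22Rv1DR constructs, the 3 highest and 3 lowest between control lines, and 3 genes of smallest p per list and line; other members whose values are given were chosen after their values were seen. A few listed genes that are not proteasome subunits are not reported here. Alternatives were a pseudocount, filters, scalings, single lanes, summed lines, array weights, a replicate block, each line alone and each library left out; leaving out 4C and 5C together was added after seeing the data. Python 3.11.15 and matplotlib 3.10.9 made tables and figures.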

Additional observations from a re-analysis of the deposited data

Results flagged for a closer look

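The effect of siPOM121 differed between the lines, by limma's test of the difference itself (22Rv1DR effect minus DU145DR effect, log2), in 3 members of the proteasome: PSME4 by 0.31, PSMD6 by 0.20 and PSMD1 by -0.17. The targeted gene POM121 differed by -1.66 and its near-identical copy POM121C by -1.86, so the depth of the knockdown differed between the lines as well; its part in the differences of the members was not tested. The groups of 2 libraries are too small for a check of single outlying libraries.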

How the results depend on the processing

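Of 57 named genes and comparisons, 30 kept their direction and their side of the threshold under all 24 settings. The PSMB10 effect in 22Rv1DR changed sign without library 5A (0.0094, adjusted p = 1.00), and ran from -0.22 to 0.0094 with single libraries left out. The members' median log2 difference stayed below 0 in both lines under every setting, from -0.12 to -0.09 in DU145DR and from -0.12 to -0.03 in 22Rv1DR, and between control lines it ran from -0.41 to -0.23. With single libraries left out, the members called were 4 to 23 in DU145DR, 7 to 25 in 22Rv1DR, 4 to 27 and 2 to 16 for constructs 1 and 2 in DU145DR, 4 to 16 and 8 to 26 in 22Rv1DR, 0 to 18 between 22Rv1DR constructs, 1 to 16 for the line difference and 32 to 38 between control lines, and 0 between DU145DR constructs. A group left with 1 library is assumed to vary like the others. With array weights 23 members were called in DU145DR, 27 and 14 for its constructs, 15 and 6 for those of 22Rv1DR, 0 between the latter and 7 for the line difference. Without 4C and 5C the DU145DR counts were 23, 27 and 16, and construct 1 in 22Rv1DR had 16. With a line fitted alone, 22Rv1DR had 5, its constructs 4 and 2, and 0 between them, and DU145DR construct 2 had 9. The lower-numbered lane gave 7 for DU145DR construct 1. The line difference had 6 with quantile normalization and 5 with equal medians (none lower in either), and 1 with the higher-numbered lane.

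The library number as a replicate block left 12 and 16 members called in DU145DR and 22Rv1DR, and 3 for the line difference, but not all the same genes: under the block PSMB7 (adjusted p = 0.069) and, among the listed genes, UBB (0.0563) were lost in DU145DR, and PSMD1 in the line difference (0.0531). Libraries of 1 number share only that number in the labels, and their deviations correlated by 0.23, 0.03 and 0.11 in DU145DR and -0.08, 0.10 and -0.04 in 22Rv1DR. Unknown depth and the floor at 1 FPKM limit what can be said of PSMB8 and PSMB9.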
